A study of Mus musculus with 2 samples.

Results

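Oxidative phosphorylation genes, of the nuclear and the mitochondrial genome, were picked by name from the probes for genes on both arrays. The names, read with their case, start with Nduf, Uqcr or Atp5, start with Cox and a digit from 4 to 8, are *Sdha*, *Sdhb*, *Sdhc* or *Sdhd*, or are 1 of 12 capitalised names of mitochondrially encoded genes. This rule uses no measured value. It found 100 gene names, on 130 probes, among the 31829 gene names of the arrays. Of the 100 genes, 79 are nuclear genes of subunits, 12 are mitochondrial genes of subunits, and 9 share the name pattern but encode assembly factors or other proteins. Where a gene had several probes, the brightest was used.

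Each array set kidney RNA of *Cnnm2* fl/fl;Six2-Cre mice (knockout) against that of controls with intact *Cnnm2* (*Cnnm2* +/+;Six2-Cre). All mice were 2 months old and untreated. Both genotypes carry the Cre transgene, and *Six2* is a gene of nephron progenitors, so that recombination belongs to the nephron epithelium that descends from them, while the collecting duct has another origin. Knockout RNA carried the dye Cy5 on array 1 and Cy3 on array 2, and values below, unless called signals, are log2 ratios of knockout over control from the scanner software's processed signals. Neither the labels nor the methods state how many mice stand behind each RNA or whether both arrays hold the same RNA. The arrays therefore give 1 replicate of each genotype, and genotypes were compared by size of the ratio with no test. Each SD is the SD of the 2 arrays, which holds labeling and hybridization error and is not known to hold any spread between mice.

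Oxidative phosphorylation passes electrons from NADH and succinate along complexes I to IV of the inner mitochondrial membrane to oxygen, and ATP synthase uses the proton gradient that complexes I, III and IV build. Part of the core of complex I, cytochrome b of complex III, the catalytic centre of cytochrome c oxidase (complex IV) and part of ATP synthase are encoded by mitochondrial DNA, which is transcribed into long precursor RNAs that are cut into single messages. All other subunits come from nuclear genes, and complex II is nuclear in full. In the kidney, the proximal tubule, the thick ascending limb and the distal convoluted tubule (DCT) are rich in mitochondria, which supply the ATP for salt reabsorption.

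The probe for *Cnnm2*, the deleted gene, read -2.88 on array 1 and -2.46 on array 2. Over the 19707 genes whose probe stood well above background on array 1 and array 2 for 1 genotype or both (called measured below), the ratios of the arrays ran against each other (Pearson's r of -0.51 across genes, which are no replicates). The knockout carried each dye once, so the mean of the arrays is balanced for the dyes and a ratio from 1 array is not. Between 62.6% and 68.0% of gene spots in a channel were well above background, and 0 were saturated. Kidney markers were measured (*Slc34a1* and *Lrp2* of the proximal tubule, *Umod* and *Slc12a1* of the thick ascending limb, *Slc12a3* and *Pvalb* of the DCT, *Aqp2* of the collecting duct, *Nphs1* of podocytes).

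The results turn on the probes of mitochondrially encoded genes, 6 of which are shown: the subunits *COX1*, *COX2* and *COX3* of cytochrome c oxidase, the probes named *ATP8* and *ND3*, whose ratios followed the dye most among these genes, and *ND6*, the only gene of the 12 on the other strand. Capitals mark G, the base that pairs with the dye-carrying C of the labeled RNA. Each is the 60-base probe as the scanner file lists it, 5′ to 3′, on the mitochondrial chromosome of the mm9 build.
*COX1* (chrM:6650-6709, plus strand): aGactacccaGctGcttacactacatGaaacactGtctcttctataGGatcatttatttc
*COX2* (chrM:7619-7678, plus strand): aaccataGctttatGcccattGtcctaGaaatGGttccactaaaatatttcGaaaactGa
*COX3* (chrM:9072-9131, plus strand): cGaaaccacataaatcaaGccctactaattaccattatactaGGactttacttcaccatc
*ATP8* (chrM:7870-7929, plus strand): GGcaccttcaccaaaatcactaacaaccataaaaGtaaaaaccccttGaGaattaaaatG
*ND3* (chrM:9745-9804, plus strand): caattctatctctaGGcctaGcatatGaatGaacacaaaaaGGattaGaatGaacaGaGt
*ND6* (chrM:13552-13611, minus strand): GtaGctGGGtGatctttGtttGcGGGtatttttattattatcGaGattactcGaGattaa
The probes hold 7, 8, 4, 6, 11 and 15 G in this order. No mitochondrial probe among the 12 shared a run of 20 bases with a probe of another name on the array, on either strand. The probes were not aligned to the genome, so matches outside the array were not looked for.

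Of the 100 genes, 98 were measured, and all 98 were well above background in both genotypes. The exceptions were *Cox7b2* and *Cox8c*, isoforms of complex IV subunits that are known from testis. The single probe named *COX1*, a mitochondrially encoded gene, read higher in the knockout RNA by at least 2-fold in the mean of the arrays. No other member reached 2-fold in this mean. A small mean can also come from large ratios of opposite direction, as for *ATP8* and *ND3*, and does not show equal levels. With a mean change of 2-fold or more and 1 direction on both arrays, 1 of 98 members was higher, against 0.315% of all measured genes, and 0 were lower, against 0.284%. At 1.2-fold, 1 member (*COX1*) was higher and 1 (*Cox8b*) was lower, where 3.66% and 4.61% of all measured genes passed. The mean of the other 96 members was at most 0.28 in size (1.21-fold), a size that *ND3* alone reached, with opposite directions on the arrays. The direction was the same on both arrays for 28 of 98 members (28.6%), close to the 27.7% of all measured genes. Of these 28, 9 were higher and 19 lower. Of the 5458 measured genes with 1 direction on both arrays, 2375 were higher and 3083 lower. Across the 98 members the median of the mean was -0.03, and across all measured genes it was -0.01. In whole-kidney RNA, fewer cells of a type and less RNA per cell cannot be told apart.

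**Figure D1:**
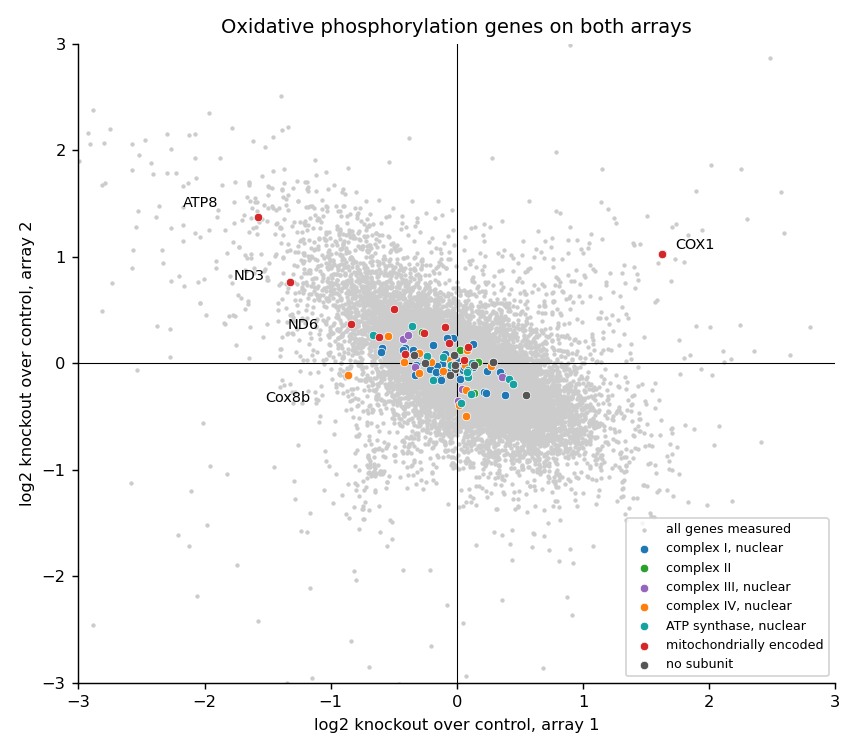
Log2 ratio of knockout over control on array 1 (x axis) against array 2 (y axis) for 19706 of the 19707 measured genes (grey), with 97 of the 98 measured oxidative phosphorylation genes coloured by complex; 25 grey points beyond 3 on either axis are not drawn. *COX1* stands in the upper right at 1.63 and 1.02, and *ATP8* and *ND3* stand in the upper left, where the ratio follows the dye.

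*COX1* encodes the subunit of cytochrome c oxidase that carries the heme and copper site where oxygen is reduced. On array 1, its processed signal was 151872 for knockout RNA against 49094 for control RNA. On array 2, the signals were 140246 against 68921. Both knockout signals were above both control signals. The log2 ratios of 1.63 (array 1) and 1.02 (array 2) gave a mean of 1.33 ± 0.43 (SD), or 2.51-fold. Signals before background subtraction were also ordered this way within each dye: in Cy5 the knockout on array 1 read 1.78 times the control on array 2, and in Cy3 the knockout on array 2 read 3.41 times the control on array 1. For *COX2* these ratios were 0.970 and 0.826, and for *COX3* they were 1.18 and 1.04. Among all 19707 measured genes, 25 (0.127%), *COX1* included, had a mean as high. A single probe carries this name, so the value has no check by another probe.

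*COX2* and *COX3*, which with *COX1* form the mitochondrial part of the same enzyme, were not at *COX1*'s ratio. *COX2*, the subunit that takes electrons from cytochrome c, read -0.61 and 0.25 on arrays 1 and 2, which gives a mean of -0.18 ± 0.61 (SD). *COX3* read -0.09 and 0.34, with a mean of 0.12 ± 0.30 (SD). The arrays disagreed in direction for both. The 6 mitochondrial genes of complex I on the coding strand shared with *COX1* gave means between -0.28 and 0.12. *ND4* (0.06 and 0.04) and *ND4L* (0.09 and 0.15) kept 1 direction with the smallest differences between arrays, while *ND2* read -0.26 and 0.28, *ND1* read -0.49 and 0.51, and *ND5* read -0.41 and 0.09. *ND3* read -1.32 and 0.76 on arrays 1 and 2, which gives a mean of -0.28 ± 1.47 (SD), an SD several times its mean.

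*ND6*, the complex I subunit encoded on the other strand, read -0.84 and 0.37, with a mean of -0.23 ± 0.86 (SD). Its probe had the weakest margin of the measured members, 2.39 times the local background in the channel where it was closest. *CYTB*, the mitochondrial subunit of complex III, read -0.07 and 0.19, with a mean of 0.06 ± 0.18 (SD). The probe named *ATP8*, which the annotation describes as ATP synthase subunit a, read -1.57 and 1.37, with a mean of -0.10 ± 2.08 (SD). Its fold was 2.97 on array 1 and 2.59 on array 2, in opposite directions. A probe of no member name at chrM:7965-8024 on mm9 past the end of the *ATP8* probe read -0.24 and 0.19, with a mean of -0.02. Over all 12 mitochondrial genes the median of the mean was 0.01, and without *COX1* it was 0.01. The medians on the single arrays were -0.33 and 0.31. Across the 11 genes other than *COX1*, the arrays ran against each other (Pearson's r -0.87, Spearman's rho -0.79), given as a description, since the genes share the same hybridizations.

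**Figure D2:**
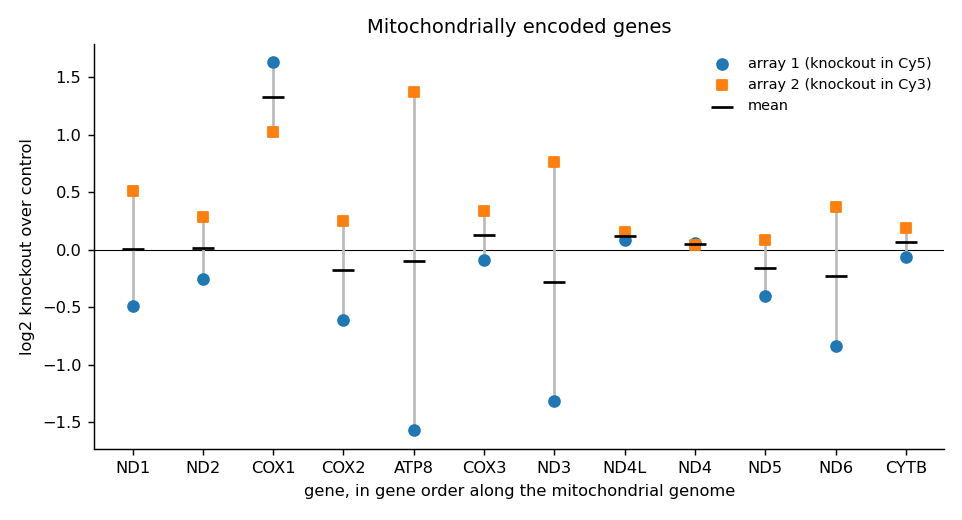
Log2 ratio of knockout over control (y axis) of the 12 mitochondrially encoded genes on array 1 (circles) and array 2 (squares), with the mean of both as a bar. *COX1* lies above 1 on both arrays, and 9 of the other 11 genes, all but *ND4* and *ND4L*, have array 1 below 0 and array 2 above 0.

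All 36 nuclear subunits of complex I that the name rule found were measured. None passed 1.2-fold in the same direction on both arrays, and the median of their means was -0.02. The 7 core subunits, which bind the flavin, the iron-sulfur clusters and the quinone, had means between 0.01 (*Ndufs3*) and 0.13 (*Ndufs1*), all above 0, with a median of 0.08. With normexp background correction and loess normalization 6 of the 7 were above 0, with background-subtracted signals and median centring 5 were, and on arrays 1 and 2 alone 3 and 4 were. The 29 accessory subunits, which surround the core, had a median of -0.07, and 23 of 29 had a mean below 0, as did 52.3% of all measured genes. The difference of the medians was 0.15, and it was 0.12 on array 1 and 0.05 on array 2. The grouping into core and accessory subunits was made after the values were seen and was not tested. Of the 7 core subunits, 0 had the same direction on both arrays. Of the 29 accessory subunits, 10 did (34.5%, against 27.7% of all measured genes), 9 of them lower. Of the 5458 measured genes with 1 direction, 3083 were lower.

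Among core subunits, *Ndufs1*, the largest iron-sulfur subunit, read 0.34 and -0.08 on arrays 1 and 2. *Ndufs7* read -0.01 and 0.04, and *Ndufv1*, which holds the flavin that accepts electrons from NADH, read -0.02 and 0.08. *Ndufs8* read -0.08 and 0.24, and *Ndufv2* read 0.24 and -0.07.

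The lowest accessory subunit was *Ndufc1*, at -0.60 and 0.10, with a mean of -0.25 ± 0.50 (SD). *Ndufb4* followed at -0.60 and 0.15. *Ndufb2* was lower on both arrays, at -0.33 and -0.11, with a mean of -0.22 ± 0.16 (SD). A smaller difference with closer arrays was seen for *Ndufb10* (-0.12 and -0.16), *Ndufa7* (-0.14 and -0.11), *Ndufb3* (-0.16 and -0.08) and *Ndufa3* (-0.07 and -0.08). The highest was *Ndufab1*, the mitochondrial acyl carrier protein, at 0.13 and 0.18, with a mean of 0.15 ± 0.03 (SD). It was the only accessory subunit higher on both arrays.

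**Figure D3:**
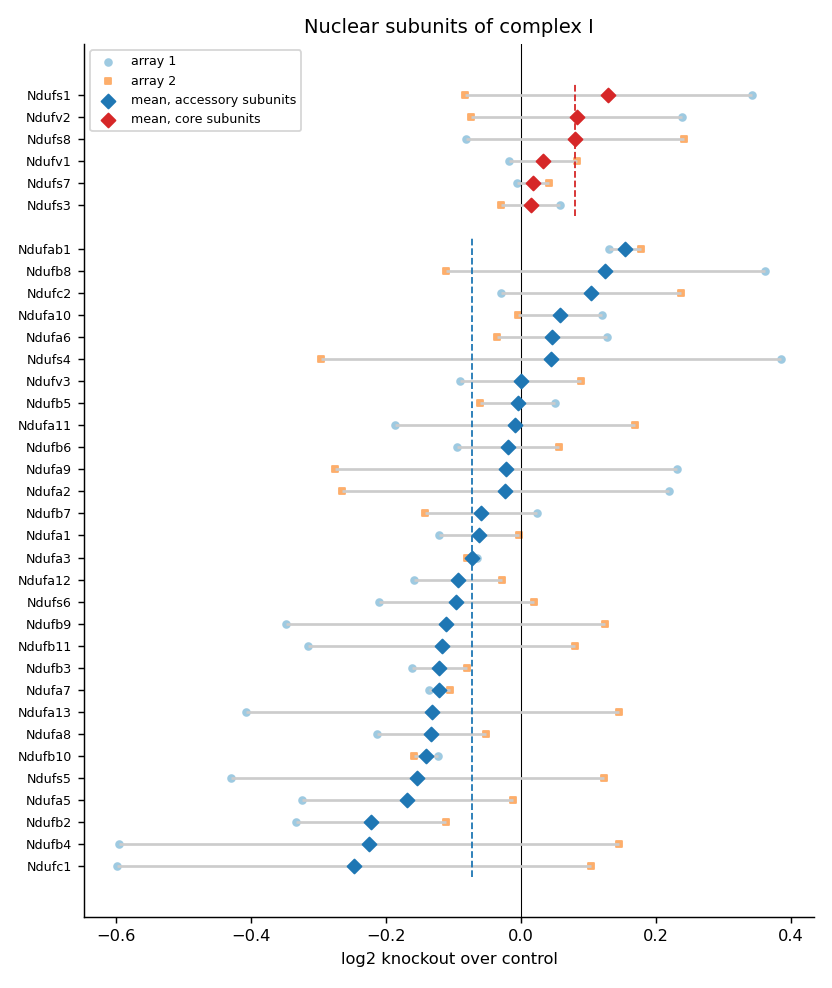
Log2 ratio of knockout over control (x axis) of 35 of the 36 nuclear subunits of complex I found by name, on array 1 (circles), array 2 (squares) and as the mean (diamonds), for 6 of the 7 core subunits (red) and 29 accessory subunits (blue). The dashed lines mark the median of the means over all 36, 0.08 for core and -0.07 for accessory subunits.

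Complex II, succinate dehydrogenase, also works in the citric acid cycle. Its flavin subunit *Sdha* read 0.17 and 0.02, with a mean of 0.09 ± 0.11 (SD). The iron-sulfur subunit *Sdhb* read 0.14 and -0.28, and the membrane anchors read -0.28 and 0.29 for *Sdhc* and 0.02 and 0.13 for *Sdhd*. The median of the 4 means was 0.04. The brightest and the other probe differed in the sign of the mean for *Sdhb* (-0.07 and 0.06) and for *Sdhc* (0.01 and -0.07).

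The 7 nuclear subunits of complex III that the name rule found had a median of -0.10, and 6 of 7 means were below 0 (52.3% of all measured genes). *Cyc1*, a subunit of the complex that the rule does not match, had a mean of 0.14. *Uqcr* (now *Uqcr11*), a small subunit, was lowest at -0.33 and -0.03, with a mean of -0.18 ± 0.21 (SD), and was the only one with the same direction on both arrays. The hinge protein *Uqcrh* read 0.01 and -0.35, and the Rieske iron-sulfur protein *Uqcrfs1* read -0.39 and 0.27. *Uqcrc2*, a large matrix-side subunit, was highest of the 7 at 0.36 and -0.12, with a mean of 0.12 ± 0.34 (SD). Its probe was printed 10 times, and its spots lay between 0.28 and 0.44 on array 1 and between -0.20 and -0.06 on array 2. The SD between spots was 0.050 and 0.046, so that the arrays differed by far more than spots of an array did.

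Of the 18 nuclear subunits of complex IV, 16 were measured, with a median of -0.09 and 12 of 16 means below 0 (52.3% of all measured genes). *Ndufa4*, named for complex I and since assigned to complex IV, is counted here. *Cox8b*, the isoform of subunit 8 of heart, skeletal muscle and brown fat, was the only member of all 98 that was lower by 1.2-fold in the same direction. Its processed signal was 207 for knockout RNA against 378 for control RNA on array 1, and 211 against 228 on array 2. Both knockout signals were below both control signals. The ratios were -0.86 and -0.11, with a mean of -0.49 ± 0.53 (SD), so the mean was smaller than the SD of the arrays and most of it came from array 1. Its widespread partner *Cox8a* read -0.03 and -0.01.

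The other isoforms with a narrow tissue range did not share 1 direction. *Cox7a1*, the muscle and heart isoform of subunit 7a, was lower on both arrays, at -0.30 and -0.09, with a mean of -0.20 ± 0.14 (SD). Its partner *Cox7a2* read -0.42 and 0.01, with the same mean of -0.20. *Cox6a2*, the muscle isoform of subunit 6a, read -0.06 and 0.03, and *Cox6a1* read -0.11 and -0.07. *Cox6b2*, known from testis, read 0.08 and -0.25, and *Cox6b1* read -0.30 and 0.10. *Cox4i2*, the isoform of subunit 4 tied to low oxygen, read 0.06 and -0.02, and *Cox4i1* read 0.08 and -0.00. *Ndufa4l2*, a paralog of *Ndufa4* that hypoxia induces, read -0.26 and 0.01, with a mean of -0.12 ± 0.19 (SD). *Ndufa4* itself read 0.07 and -0.50. The highest nuclear subunit of the complex was *Cox7c*, at 0.27 and -0.03, whose 3 probes had means between -0.07 and 0.16. *Cox5a* was higher on both arrays, at 0.08 and 0.12.

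Markers of tissues that express *Cox8b* and *Cox7a1* were looked at beside them. Of 10 genes of skeletal and heart muscle, 5 were measured and *Ckm*, *Actc1*, *Myh4*, *Tnnt3* and *Mb* were not well above background in either genotype. The summed signal of the 5 was 214 and 251 in the knockout on arrays 1 and 2, and 275 and 215 in the control, and these ranges overlap. Of 8 genes of adipocytes, 5 were measured, while *Lep*, *Elovl3* and *Dio2* were not. *Ucp1*, the uncoupling protein of brown fat, read 0.18 and 0.02, *Cidea* read -0.31 and -0.16, *Adipoq* read 0.05 and -0.33, *Plin1* read 0.16 and -0.15, and *Cfd* read -0.23 and -0.32. Their summed signal was 6817 and 5128 in the knockout on arrays 1 and 2, and 7843 and 6312 in the control. These ranges overlap as well, with the knockout lower within each array. Of the 5, 1 (*Cfd*, mean -0.27) was lower by 1.2-fold and 0 were higher, where 4.61% and 3.66% of all measured genes passed. Most of each sum was *Cfd*, at 5473 and 4065 in the knockout and 6403 and 5085 in the control. The part of fat or muscle in the ratios of *Cox8b* and *Cox7a1* was not tested.

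The 14 nuclear subunits of ATP synthase had a median of -0.02, with 10 of 14 means below 0 (52.3% of all measured genes) and none past 1.2-fold. *Atp5g3*, 1 of the 10, lay at 0 to 2 decimals. In the catalytic head, the beta subunit *Atp5b* was highest of the 14 at 0.42 and -0.15, with a mean of 0.13 ± 0.40 (SD), the alpha subunit *Atp5a1* read -0.36 and 0.35, and *Atp5c1* of the central stalk read 0.09 and -0.06. Another probe of *Atp5c1* had a mean of -0.14 against 0.01 for the brightest. In the membrane part and outer stalk, *Atp5l* was lowest at -0.67 and 0.27, with a mean of -0.20 ± 0.66 (SD), and its 5 probes had means between -0.21 and -0.13. *Atp5j2* was lower on both arrays, at -0.19 and -0.16. The genes for subunit c, the ring that turns with proton flow, read 0.09 and -0.12 for *Atp5g2* and 0.08 and -0.08 for *Atp5g3*. No probe had the name *Atp5g1*.

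The 9 genes that share the name pattern without encoding a constant subunit had a median of -0.01. The assembly factors of complex I read -0.03 and 0.08 for *Ndufaf1*, 0.13 and -0.01 for *Ndufaf2*, -0.05 and -0.11 for *Ndufaf3*, 0.55 and -0.30 for *Ndufaf4*, and -0.02 and -0.06 for *Atp5sl* (now *Dmac2*). *Cox7a2l*, which joins complexes III and IV into supercomplexes, read -0.01 on both arrays. *Atp5s*, coupling factor B, was highest at 0.28 and 0.02, with a mean of 0.15 ± 0.19 (SD). *Cox4nb* (now *Emc8*), a part of the endoplasmic reticulum membrane complex, was lowest at -0.34 and 0.08, with a mean of -0.13.

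**Figure D4:**
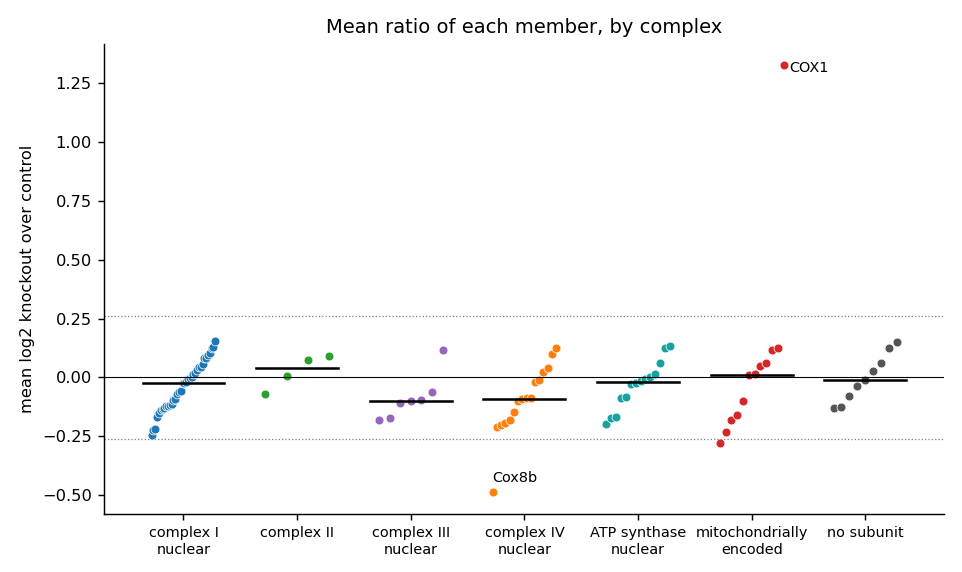
Mean log2 ratio of knockout over control over both arrays (y axis) of the 98 measured genes, grouped by complex, with the median of each group as a bar and 1.2-fold as dotted lines. *COX1* at 1.33 stands above all others, *Cox8b* at -0.49 stands lowest, and the group medians lie between -0.10 and 0.04.

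Where several probes were measured for a member (22 members, 51 probes), the means of the probes differed by a median of 0.07 and by at most 0.24, in *Cox7c*. The sign of the mean differed between probes for 6 members, *Atp5c1*, *Cox7a2l*, *Cox7c*, *Ndufb5*, *Sdhb* and *Sdhc*, whose means lay between -0.14 and 0.16. For 13 members, among them *Atp5b*, *Cox5b* and *Ndufs3*, the probe shared a run of at least 20 bases with a probe of another name, mostly a predicted gene. The pair's means differed by a median of 0.02 and at most 0.06. Whether such probes also bind RNA of the other gene was not tested.

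Genes that work beside the complexes were taken from lists. All 17 genes of pyruvate dehydrogenase and the citric acid cycle were measured, with a median of 0.03, and none passed 1.2-fold. Citrate synthase (*Cs*) read -0.08 on both arrays, *Fh1* read 0.02 and 0.01, and *Sucla2* read 0.57 and -0.22. Of 27 genes that carry electrons or assemble the complexes, 25 were measured, with a median of 0.01. Of these, 1 was higher by 1.2-fold (3.66% of all measured genes), *Tmem126b*, a complex I assembly factor, at 0.38 and 0.15. *Cyc1*, the cytochrome of complex III, read 0.28 and -0.01, and *Cycs*, cytochrome c, read -0.12 and 0.21.

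Of 16 genes of mitochondrial transcription and biogenesis, all were measured. By 1.2-fold, 0 were higher and 3 were lower, where 3.66% and 4.61% of all measured genes passed. These 3 were the whole family of PGC-1 coactivators, which bind factors such as NRF1, GABP and the estrogen-related receptors (ERR) at nuclear genes of mitochondria. *Ppargc1a* read -0.40 on both arrays, with an SD of 0.0019, and its dimmer probe read -0.02 and -0.37. The brighter probe's arrays stood apart, at -0.20 and -0.60 with the same mean, where background-subtracted signals were centred on the median. *Ppargc1b* read -0.75 and -0.10, with a mean of -0.43 ± 0.46 (SD), and *Pprc1* read -0.51 and -0.11, with a mean of -0.31 ± 0.29 (SD). Both probes were dim, with a mean log2 signal of 6.79 and 5.92, against a median of 9.07 for all measured genes. With normexp background correction and loess normalization, *Ppargc1a* kept -0.36 and *Cox8b* -0.29, while *Ppargc1b* gave -0.20 and *Pprc1* -0.06, both short of 1.2-fold. *Pprc1* was also short of it with loess alone (-0.16) and with background-subtracted signals (-0.26). The factors themselves followed the dye: *Nrf1* read 0.50 and -0.56, *Gabpa* read 0.60 and -0.38, and *Esrra* read -0.22 and 0.27. *Tfam*, which activates transcription of mitochondrial DNA, read 0.86 and -0.34, and *Polrmt*, the mitochondrial RNA polymerase, read 0.06 and 0.03.

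**Figure D5:**
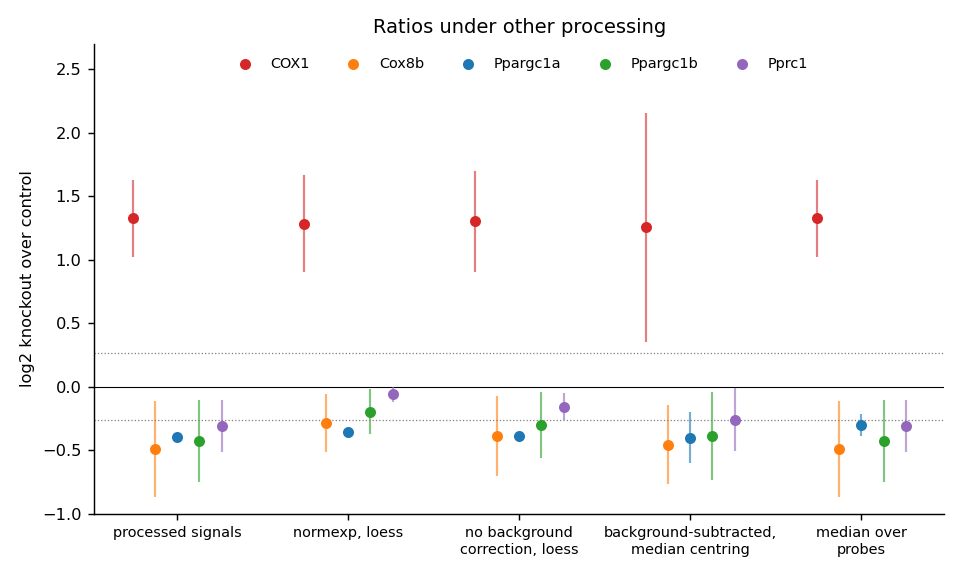
Log2 ratio of knockout over control (y axis) of *COX1*, *Cox8b* and the 3 PGC-1 coactivators under the main processing and 4 others (x axis), with the mean as a point, the range of the 2 arrays as a line and 1.2-fold as dotted lines. *COX1* stays between 1.25 and 1.33, and *Pprc1* moves from -0.31 to -0.06.

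Promoters of 72 of the 88 nuclear members, whatever their ratio, were found by symbol in RefSeq sequences of the GRCm38.p6 build, and the 250 bases before the start were searched on both strands. The letters CGCATGCG, the centre of the NRF1 site, were in 11.1% of these (8 of 72), against 1.75% of all 27025 genes with a promoter. The letters CCGGAAG of GABP and other ETS factors were in 18.1% (13), against 7.83%. The letters AAGGTCA, the site of ERR and of other nuclear receptors, were in 6.94% (5), against 4.70%, and AAGATGG of YY1 in 2.78% (2), against 5.18%. The median ratio of members with and without the letters was -0.06 and -0.06 for NRF1, and -0.09 and -0.03 for GABP. For YY1 it was -0.03 over 2 members and -0.06 over 69. For ERR it was -0.20 over 5 members and -0.03 over 66. These 5 were seen after the values were known, and a match is letters in a window and no shown site. They are printed with the match in capitals, in the direction of the gene.
*Atp5g3* (chr2:73911362-73911388, minus strand): tgttacaaagTGACCTTgagcgtcttc
*Atp5l* (chr9:44920743-44920765, minus strand): aggggcagccTGACCTTggaaat
*Ndufb2* (chr6:39592374-39592400, plus strand): gagcagcagtAAGGTCAgccaagagca
*Ndufb4* (chr16:37654407-37654433, minus strand): cctgagcctgAAGGTCAgactcgagag
*Ndufs5* (chr4:123718398-123718424, minus strand): ttctcgagtgTGACCTTgctcaagtag
Their means were -0.00 for *Atp5g3*, -0.20 for *Atp5l*, -0.22 for *Ndufb2*, -0.23 for *Ndufb4* and -0.15 for *Ndufs5*, of which *Ndufb2* alone was lower on both arrays.

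Markers of nephron segments were set beside these values because segments differ in mitochondria. The 12 markers of the proximal tubule had a median of -0.02, with none past 1.2-fold, and the 7 of the thick ascending limb had a median of -0.07, with 1 lower (*Kcnj1*). Of 9 DCT markers, 6 were lower by 1.2-fold and 3 of these by 2-fold, with a median of -0.51. Among all measured genes, 4.61% and 0.284% were lower by these limits. The list was chosen with earlier results of these data known, which gave *Pvalb*, among the 3, as lower. The count is therefore no independent result about the segment. *Slc12a3* read -0.78 and 0.19 and was not among the 6. The summed signal of the 9 was 59905 and 42540 in the knockout on arrays 1 and 2 against 87636 and 64052 in the control. Most of each sum was *S100g*, at 43422 and 28307 in the knockout and 62024 and 40387 in the control. Of 10 markers of the collecting duct, 2 were lower by 1.2-fold, and of 7 of podocytes, 3 were. Of 7 leukocyte genes, 1 was lower, and of 5 red blood cell genes, none passed 1.2-fold, with a median of -0.21. The part of cell composition in the ratios of the oxidative phosphorylation genes was not tested.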

How the data were processed

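Kidney RNA of both genotypes was compared on a pair of 2-colour arrays with swapped dyes. Per the file headers, the signal intensity that the authors deposited comes from Agilent Feature Extraction 10.7.3.1 (the submitters' processing notes name 10.5.1.1) and is corrected for background and dye within each array. The authors also deposited log10 ratios in the scanner files and in a matrix, whose values differed by at most 0.00492 after turning both to knockout over control. Other flags of the deposited files, which mark spots as outliers or as well above background, were used as filters.

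Here, processed intensities were taken to log2. Spots marked as outliers (141 and 175 of 43020) were left out, spots of a probe were averaged, and the brightest probe of each name was kept. The mean over both arrays balances the dyes. A member counts as changed at 2-fold or 1.2-fold with 1 direction. The members, the gene lists and the rule for named genes (all mitochondrially encoded members, complex II, the extremes of each complex, members past 1.2-fold, tissue-restricted isoforms with partners, subunit c, members whose probes disagree in sign, and name matches that are no subunits) were chosen with earlier results of these data known. Other members and list genes are named as examples of a group, chosen after their values were seen. Some genes are not reported here by name. Probe positions are on mm9. The number of arrays limits the precision. Alternatives were other background corrections and normalizations, other filters, limma 3.58.1, the methods' t-test and each array alone. The code was tested on simulated data. Python 3.11.15 and R 4.3.3 were used.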

Additional observations from a re-analysis of the deposited data

How the results depend on the processing

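*COX1* stayed between 1.25 and 1.33 under the 9 alternatives that keep both arrays, although background-subtracted signals with median centring split its arrays to 2.16 and 0.35, and it was 1.02 and 1.63 on the single arrays. Limma, which counts the arrays as replicates, gave 0 members at an adjusted p under 0.05 (1 at an unadjusted p under 0.05, *COX1*), and 0 genes of all measured. The methods' t-test at p under 0.1 and after Benjamini-Hochberg adjustment also left 0 members past 2-fold or 1.2-fold, higher or lower. Whatever their fold, 6 of 98 members were under 0.1 before adjustment, as were 984 of the 19707 measured genes. Requiring the limit on each array left 0 members lower by 1.2-fold. The count of members with 1 direction fell to 18 with background-subtracted signals and median centring, where the share of all measured genes is not given. On a single array this count has no value. The median of complex II, 0.0411, became 0.0217 with normexp and loess, 0.0234 with loess alone, 0.0033 with background-subtracted signals and 0.0339 with the median over probes. On single arrays, whose ratios are not balanced for the dyes, 1 to 3 members were higher and 0 to 3 lower by 2-fold. By 1.2-fold, 10 to 12 were higher and 10 to 28 lower. The share of all measured genes past these limits on a single array is not given, so these counts are no result about the members. Medians on single arrays were -0.106 to -0.0086 for nuclear complex I, 0.0718 to 0.081 for complex II and -0.25 to -0.03 for complex III. They were -0.0434 to -0.0114 for complex IV, -0.07 to 0.05 for ATP synthase, -0.33 to 0.31 for mitochondrially encoded genes and -0.061 to -0.00037 for all members. The difference of core and accessory medians of complex I, added after seeing the data, was 0.15 to 0.17 with both arrays and 0.05 to 0.13 on single arrays, where the brightest probe was chosen on that array alone. No other count moved by over 1.5 times and no other median by more than the SD of the arrays. No paired analysis was possible because there is 1 replicate of each genotype, so no replicate numbers pair samples; the methods' t-test pairs the genotypes within each array and counts the arrays as replicates.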
